A study of Mus musculus with 6 samples.

Results

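The genes described here encode the proteins of the mitochondrial ribosome, and they were followed through primary mouse embryonic fibroblasts (MEFs) of 6 genotypes. They were taken by symbol, as every gene named Mrpl or Mrps followed by a number that reached 1 CPM (counts per 1e6 counts on genes) in at least 1 library. The symbol rule found 75 of the 25793 genes listed, and 73 of them met the level rule, 45 named for the large subunit and 28 for the small one. Mrpl23 and Mrps36 stayed under 1 CPM and were not compared.

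RNA from MEFs of E13.5 embryos was sequenced with 1 library per genotype. The labels name β2SP+/- and β2SP-/- cells (heterozygous and homozygous for a knockout of Sptbn1, the gene of the membrane-skeleton protein beta-II spectrin), SMAD3+/- and SMAD3-/- cells (heterozygous and homozygous for a knockout of Smad3, a transcription factor downstream of TGF-beta receptors), β2SP+/- ; SMAD3+/- cells (double heterozygous) and wild-type (WT) cells. The series set these genotypes against each other to profile gene expression. No treatment, strain, sex or number of embryos per library is given in the labels, and all 6 cultures shared the same medium with 10% fetal bovine serum. Since each genotype has a single library, nothing checks the spread between replicates, and the comparisons are between libraries rather than between genotypes.

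Mitochondria keep their own ribosome, which translates the few messages of the mitochondrial genome, all of them for subunits of the respiratory chain and ATP synthase. Its ribosomal RNAs are transcribed inside the organelle, whereas all of its proteins are encoded in the nucleus, made in the cytosol and imported. Proteins whose structural name starts with u or b (uL2m, bS6m) have counterparts in bacterial ribosomes. Most of those starting with m (mL38, mS34) were added in mitochondria.

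Promoters are shown for 4 of these genes, because 2 of them (Mrps18b and Mrpl36) had the highest ratios in the library labelled Smad3 homozygote and 2 (Mrps14 and Mrpl17) the lowest. Each sequence is from RefSeq (GRCm38.p6), runs 5′ to 3′ along the gene and covers 250 bases before to 50 bases after its start. Capitals mark letters of 3 motifs searched on both strands: NRF1 (GCATGCGC), ETS (CCGGAAG) and YY1 (AAGATGGCG).
Mrps18b (chr17:35916391-35916690, minus strand): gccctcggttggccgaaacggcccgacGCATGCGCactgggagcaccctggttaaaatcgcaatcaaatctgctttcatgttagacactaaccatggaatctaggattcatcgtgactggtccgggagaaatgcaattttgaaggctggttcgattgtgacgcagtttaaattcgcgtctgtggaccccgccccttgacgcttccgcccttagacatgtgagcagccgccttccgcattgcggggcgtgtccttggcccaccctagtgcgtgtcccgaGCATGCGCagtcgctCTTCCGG
Mrpl36 (chr13:73330759-73331058, plus strand): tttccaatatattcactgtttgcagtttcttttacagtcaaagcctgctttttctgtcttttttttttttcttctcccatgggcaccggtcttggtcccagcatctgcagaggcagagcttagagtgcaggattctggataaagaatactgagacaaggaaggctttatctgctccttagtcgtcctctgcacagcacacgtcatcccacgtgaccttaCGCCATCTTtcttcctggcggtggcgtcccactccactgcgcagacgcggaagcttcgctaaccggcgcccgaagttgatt
Mrpl17 (chr7:105811038-105811337, minus strand): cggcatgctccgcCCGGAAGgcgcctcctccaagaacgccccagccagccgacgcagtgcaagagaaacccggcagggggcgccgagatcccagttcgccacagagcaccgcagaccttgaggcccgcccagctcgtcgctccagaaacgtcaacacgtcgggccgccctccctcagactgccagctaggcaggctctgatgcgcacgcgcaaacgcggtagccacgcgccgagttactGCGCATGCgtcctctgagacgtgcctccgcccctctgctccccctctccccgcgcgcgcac
Mrps14 (chr1:160194965-160195264, plus strand): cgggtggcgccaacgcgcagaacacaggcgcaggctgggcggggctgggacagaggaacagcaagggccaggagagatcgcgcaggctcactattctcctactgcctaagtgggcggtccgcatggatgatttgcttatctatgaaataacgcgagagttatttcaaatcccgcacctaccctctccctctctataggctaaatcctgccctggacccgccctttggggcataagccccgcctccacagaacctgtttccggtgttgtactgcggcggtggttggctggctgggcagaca
Mrps18b and Mrpl17, at opposite ends of the ratios, both carried the NRF1 and ETS letters, Mrpl36 carried those of YY1, and Mrps14 carried none of the 3.

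Some facts of the libraries bear on what follows. Counts on genes were 6888076 and 6856680 in the libraries labelled Sptbn1 heterozygote and homozygote, 10477425 and 21329087 in those labelled Smad3 heterozygote and homozygote, 31125055 in the double heterozygote and 11407587 in WT. Of uniquely placed reads, 80.1% fell on genes in the Smad3 homozygote and 81.2% did so in the double heterozygote, against 40.9 to 43.3% in the other 4 libraries, so these 2 libraries stand apart. Sptbn1, listed under its older symbol Spnb2, was at 75.5 and 54.3% of its WT level in the libraries labelled Sptbn1 heterozygote and homozygote, and at 48.9% in the double heterozygote. In the library labelled Smad3 homozygote, whose label names no Sptbn1 mutation, it was at 72.0%. Smad3 was at 149, 199 and 381% of its WT level in the libraries labelled Smad3 heterozygote, Smad3 homozygote and double heterozygote, which goes against a loss of its transcript; counts over the whole gene do not show whether a deleted part is missing. The genotype names below are therefore those of the labels. Fibroblast markers were all present in every library, 10 of 10, at summed levels of 17350 to 47653 CPM.

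All 73 genes were detected in every library, and within a library the most abundant of them had 20.2 to 36.4 times the level of the least abundant. Levels in what follows are CPM of a library size scaled with TMM, and ratios carry exact 95% intervals that cover counting error only. In 5 of the 6 libraries Mrpl17 (bL17m) was the most abundant, with 91.1, 80.7 and 96.5 CPM in the libraries labelled Sptbn1 heterozygote, Sptbn1 homozygote and Smad3 heterozygote, 53.5 CPM in the double heterozygote and 87.1 CPM in WT. The library labelled Smad3 homozygote was the exception: Mrpl17 had 61.7 CPM there and stood behind Mrpl20 (bL20m) with 74.2 CPM, Mrpl12 (bL12m, of the flexible stalk that binds translation factors) with 68.7 CPM, Mrps7 (uS7m, of the head of the small subunit) with 64.9 CPM and Mrpl9 (bL9m) with 64.3 CPM. At the low end, Mrps33 (mS33) averaged 3.00 CPM over the 6 libraries, Mrpl48 4.62 CPM, Mrpl22 5.63 CPM, Mrpl55 6.67 CPM and Mrps18b 6.84 CPM. Behind Mrpl17, at a mean of 78.4 CPM, came Mrpl50 with 42.5 CPM, Mrps2 with 41.2 CPM, Mrps14 with 39.4 CPM and Mrpl18 with 39.0 CPM.

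Corrected for transcript length, the order was different. Mrpl52 (mL52) led with a mean of 78.3 CPM per kb, followed by Mrpl33 with 69.1, Mrpl20 with 45.2 and Mrps6 with 37.7 CPM per kb. Mrpl17 ranked 46 of 73 on this scale, with 10.7 CPM per kb. Mrpl48 and Mrps5, which have long annotated transcripts of 4285 and 4481 nt, closed the order with 1.08 and 2.06 CPM per kb. Each length is that of the longest annotated protein-coding transcript of the gene, 7300 nt for Mrpl17, so this order rests on that choice. Which transcript the cells express was not tested. The lengths come from an annotation of GRCm38 and not of the build named in the submitters' processing notes, mm9.

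The spread of a gene over the libraries was taken as the ratio of its highest to its lowest level, which cannot fall as libraries are added. Over the libraries labelled Sptbn1 heterozygote, Sptbn1 homozygote and Smad3 heterozygote and WT, this ratio had a median of 1.27 and passed 1.5 for 13 of 73 genes (17.8%), against a median of 1.37 and 38.2% of the 14004 genes counted in every library. Over all 6 libraries the median was 2.36 and the ratio passed 1.5 for 65 genes (89.0%), against 2.73 and 90.8% of those 14004 genes. The widest was Mrps18b at 8.39. Among genes with a mean of at least 10 CPM, Mrpl54 (5.03), Mrpl28 (4.65) and Mrpl38 (4.50) had the widest ratios, and Mrpl37 (1.31), Mrpl4 (1.35) and Mrps2 (1.36) the narrowest. The library labelled Smad3 homozygote held the highest of the 6 levels for 60 of the 73 genes (82.2%). Of all 14824 genes compared, 32.4% had their highest level there. WT held the highest level for 0 of the 73, against 7.99% of all genes, and the lowest for 20 (27.4%), against 8.86% of all genes. The double heterozygote also held the lowest level for 20 of the 73, against 22.6% of all genes.

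**Figure D1:**
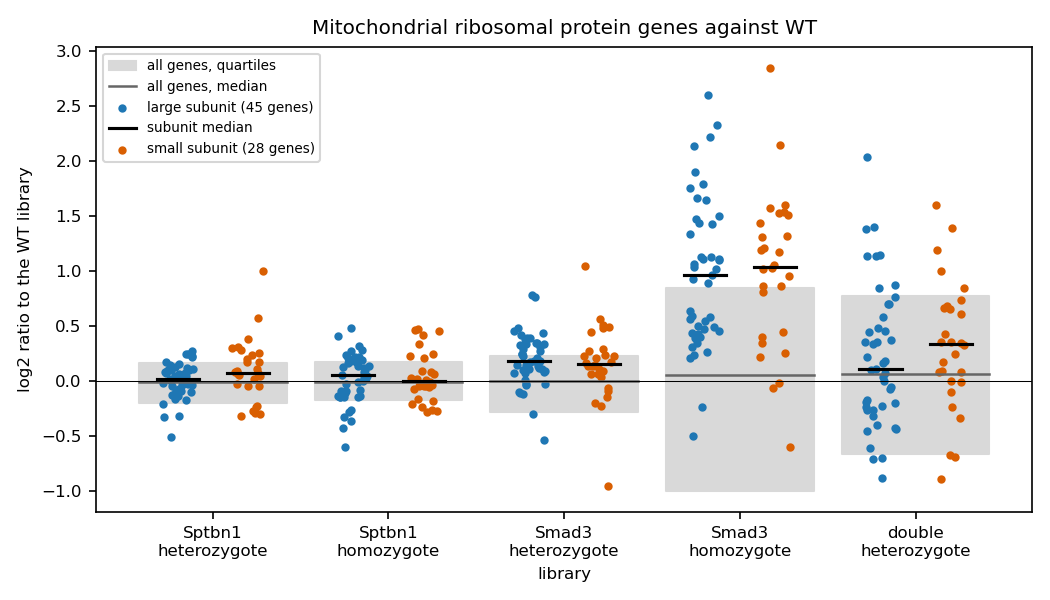
Log2 ratio of each gene's level to the WT library (y axis) in the 5 mutant libraries (x axis), with 1 point for each of 45 large-subunit and 28 small-subunit genes, black bars at the subunit medians and grey bands from the lower to the upper quartile of all 14824 genes compared. Most points lie close to 0 in the first 3 libraries, whereas the medians in the library labelled Smad3 homozygote are 0.96 (large) and 1.04 (small).

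In the libraries labelled Sptbn1 heterozygote and homozygote, no gene of the mitochondrial ribosome was called against WT. A gene counts as higher or lower here when the whole interval of its ratio lies beyond 1.5-fold, and 0 of 73 were higher and 0 lower in each library. Over all genes the rule called 0.634% higher and 1.19% lower in the Sptbn1 heterozygote, and 0.648% higher and 0.411% lower in the Sptbn1 homozygote, so that a count of 0 or 1 among 73 is near the background. On the log2 scale the median ratio of the 73 genes was 0.05 in the heterozygote, against -0.01 over all genes. In the homozygote it was 0.03, against 0.00 over all genes.

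The gene farthest above WT in these 2 libraries was Mrps5 (uS5m, which lines the entry of the messenger RNA into the small subunit). Mrps5 had 8.83 CPM in the Sptbn1 heterozygote and 6.13 CPM in the Sptbn1 homozygote, against 4.42 CPM in WT. The ratio of the heterozygote to WT was 2.0 (1.35 to 2.97), an interval that reaches below 1.5-fold. Mrps35 (mS35), with a ratio of 1.49 (1.10 to 2.02) in the heterozygote, and Mrpl1 (uL1m) and Mrps22 (mS22), with ratios of 1.40 (1.15 to 1.70) and 1.39 (1.12 to 1.72) in the homozygote, came next and also lay outside the rule.

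In the library labelled Smad3 heterozygote, Mrps6 alone was called, and most other genes of the list lay slightly above WT. Mrps6 encodes bS6m, a protein of the platform of the small subunit. It had 50.6 CPM in the Smad3 heterozygote against 24.5 CPM in WT, a ratio of 2.06 (1.78 to 2.40) that a 2-fold threshold no longer called. In the other libraries it had 26.1 CPM (Sptbn1 heterozygote), 21.2 CPM (Sptbn1 homozygote), 44.6 CPM (Smad3 homozygote) and 24.4 CPM (double heterozygote), so that 2 of the 6 libraries were high and the rest close together.

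Over all genes the rule called 1.64% higher and 4.45% lower in the Smad3 heterozygote, and 1 higher and 0 lower of 73 is near that background. The median log2 ratio of the 73 genes was 0.17, against 0.01 over all genes, and 59 of the 73 ratios lay above 1. Mrpl28 (1.70, 1.38 to 2.11) and Mrpl55 (1.72, 1.19 to 2.49) fell just outside the rule. The lowest ratio belonged to Mrps12 (uS12m, at the decoding centre), with 5.91 CPM in the Smad3 heterozygote against 11.4 CPM in WT; its ratio was 0.52 (0.38 to 0.71) and was not called.

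Mrps6 shares 19.9% of its exon bases with other genes on the same strand, among them Slc5a3, which encodes a myo-inositol transporter and lies inside the Mrps6 locus. Slc5a3 had 279.7 CPM in the Smad3 heterozygote, against 139.3 CPM in WT, a ratio of 2.01 (1.89 to 2.14). In the double heterozygote Slc5a3 was at 16.6% of WT while Mrps6 had a ratio of 1.00 (0.87 to 1.15). The sources used here do not give how reads of the shared exons were counted, and the part of Slc5a3 reads in the Mrps6 value was not tested. The library labelled Smad3 heterozygote also had 2747 CPM of Xist, the RNA of the inactive X chromosome, against at most 16.3 CPM in the other 5, and the labels do not give the sex of the embryos.

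The library labelled Smad3 homozygote had the highest summed level of the set. Of the 73 genes, 45 were higher than WT (61.6%) and 0 lower, where the rule called 24.2% of all genes higher and 25.2% lower. Over these genes the median log2 ratio was 1.03, against 0.06 over all genes, and 68 of the 73 ratios lay above 1. Summed over the 73 genes, the level was 2528 CPM in the Smad3 homozygote, against 1397 CPM in WT. The other sums were 1432 and 1439 CPM in the libraries labelled Sptbn1 heterozygote and homozygote, 1598 CPM in the Smad3 heterozygote and 1575 CPM in the double heterozygote. The count of 45 higher genes became 24 with a 2-fold threshold and 2 with intervals widened by the spread over all 6 libraries. It became 29 with the spread in the 4 libraries other than the Smad3 homozygote and the double heterozygote. Each spread is what a fit to labelled allele numbers leaves over. In those 4 libraries the fit has 1 residual degree of freedom and meets the Smad3 heterozygote exactly. That spread thus rests on WT and both Sptbn1 libraries.

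Mrps18b (mS40) had the highest ratio. It is 1 of 3 mammalian proteins derived from the bacterial protein S18. It had 21.0 CPM in the Smad3 homozygote, 7.68 CPM in the double heterozygote and 2.5, 2.99 and 3.97 CPM in the Sptbn1 heterozygote, Sptbn1 homozygote and Smad3 heterozygote, against 2.92 CPM in WT. The ratio of the Smad3 homozygote to WT was 7.20 (5.05 to 10.6), and the intervals of the ratios of the Sptbn1 heterozygote, the Sptbn1 homozygote and the Smad3 heterozygote all include 1. An antisense gene, Gm16279, covers 30.5% of the Mrps18b exon bases, and reads of the 2 cannot be told apart without strand.

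Mrpl36 (bL36m, a small zinc-binding protein that joins the large subunit late) was high in 1 library alone. It had 27.5 CPM in the Smad3 homozygote, against 4.51 CPM in WT, a ratio of 6.09 (4.58 to 8.28), and 4.48 to 6.21 CPM in the remaining 4 libraries. Its ratio to the double heterozygote was 4.43 (3.76 to 5.23), the highest of the 73. Ndufs6, on the opposite strand, covers 2.58% of the Mrpl36 exon bases.

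Mrpl54 (mL54) and Mrpl28 (bL28m) were high in 2 libraries. Mrpl54 had 44.0 CPM (Smad3 homozygote) and 23.1 CPM (double heterozygote), against 8.76 CPM in WT, with 8.98 to 10.9 CPM in the other 3. The Smad3 homozygote ratio was 5.03 (4.08 to 6.24). Mrpl28 had 60.1 CPM (Smad3 homozygote) and 33.6 CPM (double heterozygote), against 12.9 CPM in WT, with 14.1 to 22.0 CPM in the others, and the first ratio was 4.65 (3.92 to 5.55).

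Mrpl12, which in mammals also binds the mitochondrial RNA polymerase, and Mrps5 completed the group of 6 with the largest intervals from 1-fold. Mrpl12 had 68.7 CPM in the Smad3 homozygote, 28.6 CPM in the double heterozygote and 18.1 to 21.8 CPM in the other mutants, against 15.6 CPM in WT; the Smad3 homozygote ratio was 4.41 (3.77 to 5.18). Mrps5 had 19.6 CPM (Smad3 homozygote) and 10.1 CPM (double heterozygote), against 4.42 CPM in WT, and ratios of 4.43 (3.3 to 6.06) and 2.28 (1.69 to 3.14). WT was the lowest of the 6 libraries for both genes. A long non-coding gene on the opposite strand, Gm16755, covers 13.1% of the Mrpl12 exon bases.

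A minority did not take part. Mrps14 (uS14m, of the head of the small subunit) had 28.9 CPM (Smad3 homozygote) and 23.7 CPM (double heterozygote), against 43.8 CPM in WT, with 43.1 to 51.4 CPM in the other 3 mutants. Its ratio in the Smad3 homozygote was 0.66 (0.59 to 0.74), short of the rule. Mrpl17 (0.71, 0.65 to 0.77) and Mrpl52 (0.85, 0.75 to 0.96) were also below 1, and so were Mrps2 at 0.96 and Mrps28 at 0.99. At the edge of the rule, Mrps25 (1.76, 1.5 to 2.06) and Mrpl48 (2.18, 1.58 to 3.08) lay just inside. Mrpl35 (1.5, 1.33 to 1.71) and Mrpl18 (1.48, 1.33 to 1.66) lay just outside. Nr2c2, on the opposite strand, covers 69.8% of the Mrps25 exon bases. It had a ratio of 1.77 (1.63 to 1.92) in the Smad3 homozygote, and its part in the Mrps25 value was not tested.

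**Figure D2:**
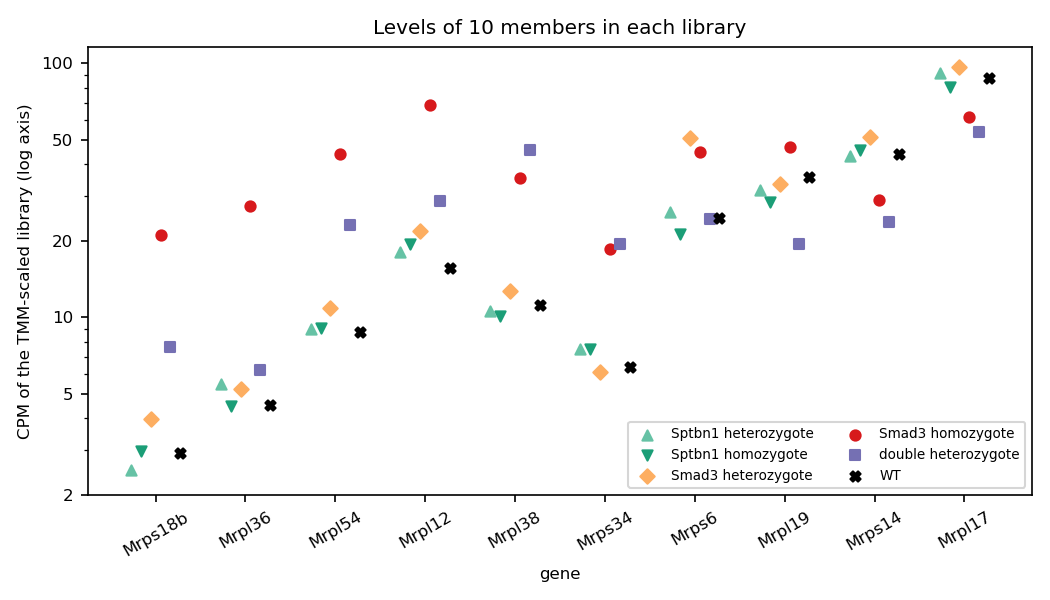
Level of 10 genes (x axis) in each of the 6 libraries (y axis, CPM of the TMM-scaled library, log axis), with 1 point per library. Mrps18b, Mrpl36, Mrpl54 and Mrpl12 are highest in the library labelled Smad3 homozygote, Mrpl38 is highest in the double heterozygote (45.7 CPM), Mrps6 in the library labelled Smad3 heterozygote (50.6 CPM), and Mrps14 and Mrpl17 are lowest in the double heterozygote.

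Other measures moved in the library labelled Smad3 homozygote together with these genes. Of 16 genes of DNA replication, 13 were higher and 0 lower, and their summed level was 1776 CPM against 707 CPM in WT. Mcm5, of the replicative helicase, had 187 CPM in the Smad3 homozygote against 34.9 CPM in WT. All 12 macrophage markers were lower, with a sum of 61.3 CPM against 2357 CPM in WT (1536 to 2304 CPM in the other 4 libraries), and none was at 0. Fibroblast markers were lower for 7 of 10 and higher for 2, with a sum of 17350 CPM in the Smad3 homozygote, against 26982 CPM in WT. In bulk samples such as these, fewer cells of a type and less RNA per cell cannot be told apart.

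Epithelial and muscle markers were each higher for 3 of 5 and lower for 0 in the Smad3 homozygote, neural and glial markers were higher for 2 of 7 and lower for 3, and endothelial markers were higher for 0 of 4 and lower for 2. Epithelial markers summed to 69.2 CPM in the Smad3 homozygote, against 10.9 CPM in WT, with Esrp1 at 0 in both, and muscle markers to 109 and 66.8 CPM, with Myog at 0 in WT. Neural and glial markers summed to 131 CPM in the Smad3 homozygote, against 77.8 CPM in WT, and endothelial markers to 7.15 and 14.7 CPM. The erythroid markers were all at 0 in the Smad3 homozygote and summed to 1.68 CPM in WT, where 4 of 6 were at 0. The part of these cell mixtures, of the DNA replication genes and of the higher share of reads on genes in the mitochondrial ribosome result was not tested.

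Overlap with neighbouring genes went with the share of genes called higher in the Smad3 homozygote. By the GRCm38 annotation 32 of the 73 genes share exon bases with another gene, and 25 of these 32 were higher in the Smad3 homozygote, against 20 of the 41 without any overlap. The median log2 ratio was 1.09 with overlap and 0.64 without, both above the 0.06 of all genes. In the double heterozygote 6 of the 32 were higher and 1 lower, against 8 higher and 2 lower of the 41, with median log2 ratios of 0.35 and 0.09. Over all genes the rule called 24.2% higher in the Smad3 homozygote, and 21.6% higher and 19.1% lower in the double heterozygote. Among the 63 genes with under 20% of exon bases shared, 37 were higher in the Smad3 homozygote and the median was 1.02. The 2 libraries that stand apart also differed in reads that fit several genes, at 0.0251% of records (Smad3 homozygote) and 0.827% (double heterozygote), against 0.363 to 0.413% in the other 4.

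Transcript length and base composition were measured beside the ratios. Across the 73 genes, which share the same 2 libraries, the log2 ratio of the Smad3 homozygote to WT had a Pearson correlation of 0.26 with transcript GC content and -0.06 with transcript length. Over all genes with a length and GC value the 2 correlations were 0.16 and -0.16. Split by GC content into 24, 24 and 25 genes, from low to high, the medians were 0.90, 1.11 and 1.03.

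In the double heterozygote 14 of the 73 genes were higher than WT (19.2%) and 3 lower (4.11%). The rule called 21.6% of all genes higher and 19.1% lower in this library. The share of higher genes is thus near the background and that of lower genes below it. The median log2 ratio was 0.19, against 0.07 over all genes, and 48 of the 73 ratios lay above 1. The 14 higher and 3 lower genes became 4 and 0 with a 2-fold threshold. They became 7 and 0 with intervals widened by the spread left by the fit in 4 libraries, and 0 and 0 with the spread over all 6. With the Smad3 heterozygote library in place of WT, 6 were higher and 7 lower.

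Mrpl38 and Mrps34 were the genes farthest above WT. Mrpl38 (mL38, of the central protuberance of the large subunit) had 45.7 CPM in the double heterozygote and 35.4 CPM in the Smad3 homozygote, against 11.1 CPM in WT, with 10.2 to 12.7 CPM in the other 3. Its ratio in the double heterozygote was 4.10 (3.41 to 4.96), and the 2 high libraries did not overlap the 4 low ones. Mrps34 (mS34, required for a stable small subunit) had 19.4 CPM in the double heterozygote and 18.5 CPM in the Smad3 homozygote, against 6.37 CPM in WT, with 6.10 to 7.51 CPM in the others, and a double heterozygote ratio of 3.04 (2.38 to 3.94).

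Other genes shared 77.8% of the Mrps34 exon bases, Mapk8ip3 on the opposite strand and Nme3 on the same one. Nme3 itself had 4.36 CPM in the double heterozygote and 3.64 CPM in the Smad3 homozygote, against 3.54 CPM in WT. Next in the order were Mrpl28 (2.6, 2.19 to 3.12), Mrpl54 (2.64, 2.13 to 3.29), Mrpl45 (2.20, 1.88 to 2.58), which holds the ribosome to the inner membrane near the exit tunnel, and Mrpl2 (2.22, 1.84 to 2.68), whose product uL2m lies close to the peptidyl transferase centre. Mrps9 and Mrpl10 lay just inside the rule, and Mrpl9 and Mrps30 just outside.

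The 3 lower genes were Mrps14, Mrpl19 and Mrpl17. Mrps14 had 23.7 CPM in the double heterozygote against 43.8 CPM in WT, a ratio of 0.54 (0.48 to 0.61). Mrpl19 (bL19m) had 19.4 CPM in the double heterozygote, against 35.7 CPM in WT, a ratio of 0.54 (0.48 to 0.62), and 46.9 CPM in the Smad3 homozygote; Gcfc2, on the opposite strand, covers 36.0% of its exon bases. Mrpl17 had a ratio of 0.61 (0.57 to 0.67). Mrpl19 thus lay on opposite sides of WT in the 2 libraries, and Mrps14 and Mrpl17 on the same side.

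GC content went with the ratio more closely in the double heterozygote: the Pearson correlation across the 73 genes was 0.44, and 0.30 over all genes. Among the 24 genes of lowest GC content, which held all 3 lower genes, the median log2 ratio was -0.05, and it was 0.36 and 0.33 among the 24 of middle and the 25 of highest GC content. DNA replication genes were not higher here, with 0 of 16 higher and 4 lower and a sum of 570 CPM against 707 CPM in WT. Macrophage markers summed to 1641 CPM and fibroblast markers to 47653 CPM in the double heterozygote, against 2357 and 26982 CPM in WT. Of the 12 macrophage markers 1 was higher and 6 were lower, and of the 10 fibroblast markers 5 were higher and 1 was lower. The sums of the other marker lists in the double heterozygote were 6.02 CPM (epithelial), 8.82 CPM (endothelial), 32.9 CPM (neural and glial), 40.3 CPM (muscle) and 0.223 CPM (erythroid). The part of base composition and of cell mixture in these values was not tested.

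The 2 libraries that stand apart have like shares of reads on genes, so the Smad3 homozygote was also set against the double heterozygote. Of the 73 genes, 34 were higher in the Smad3 homozygote (46.6%) and 0 lower, where the rule called 19.8% of all genes higher and 23.3% lower. Over the 73 genes the median log2 ratio was 0.69, against 0.00 over all genes, and 69 of 73 ratios lay above 1. The count of 34 became 11 with a 2-fold threshold. It was also 11 with intervals widened by the spread left by the fit in 4 libraries, and 0 with the spread over all 6. After Mrpl36, the highest ratios belonged to Mrps10 (uS10m; 2.87, 2.37 to 3.47) and Mrps18b (2.74, 2.34 to 3.21). Below 1 were Mrpl14 (0.72, 0.64 to 0.82), Mrpl38 (0.77, 0.71 to 0.85), Mrpl52 (0.89, 0.81 to 0.98) and Mrps34 (0.96, 0.84 to 1.09). Macrophage markers were lower for 12 of 12 and DNA replication genes higher for 15 of 16 in this pair as well.

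**Figure D3:**
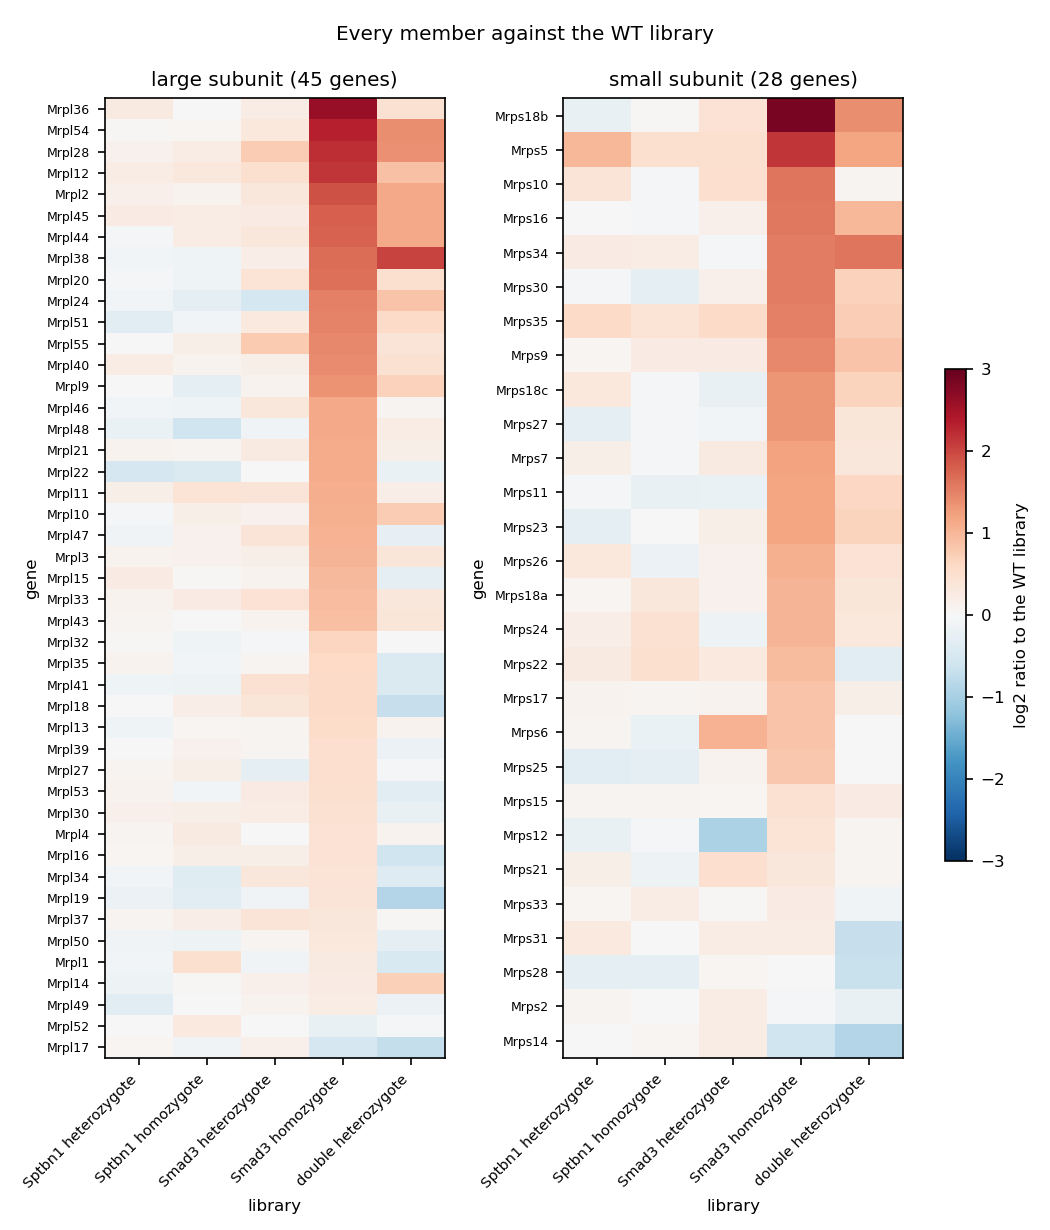
Log2 ratio to the WT library (colour) of every large-subunit gene (left, 45 rows) and small-subunit gene (right, 28 rows) in the 5 mutant libraries (columns), ordered by the library labelled Smad3 homozygote. That column is red for nearly all rows (68 of 73 ratios above 1), the double heterozygote column is mixed (48 of 73 above 1), and the first 2 columns stay pale.

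Genes of both subunits were among those called higher, and the difference between the subunits was not tested. In the library labelled Smad3 homozygote 25 of 45 large-subunit genes (55.6%) and 20 of 28 small-subunit genes (71.4%) were higher than WT, with median log2 ratios of 0.96 and 1.04. Over all genes the rule called 24.2% higher in this library. In the double heterozygote 9 large-subunit genes were higher (20%) and 2 lower (4.44%), with a median of 0.11. There 5 small-subunit genes were higher (17.9%) and 1 lower (3.57%), with a median of 0.34. The rule called 21.6% of all genes higher and 19.1% lower in the double heterozygote, so both shares of higher genes are near the background. The medians were 0.02 (large) and 0.08 (small) in the Sptbn1 heterozygote, 0.06 and 0.00 in the Sptbn1 homozygote, and 0.18 and 0.15 in the Smad3 heterozygote. Between the Smad3 homozygote and the double heterozygote 23 large-subunit (51.1%) and 11 small-subunit genes (39.3%) were higher, against 19.8% of all genes. The medians were 0.75 and 0.67.

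The balance of the subunits within each library does not depend on library size. Summed large-subunit counts were 2.03 times the summed small-subunit counts (1.94 to 2.11) in the Sptbn1 heterozygote, 2.12 (2.04 to 2.22) in the Sptbn1 homozygote, 2.05 (1.99 to 2.12) in the Smad3 heterozygote, 2.09 (2.05 to 2.13) in the Smad3 homozygote, 2.04 (2.0 to 2.08) in the double heterozygote and 2.10 (2.03 to 2.17) in WT. The interval of each mutant library overlapped that of WT. These intervals cover counting error only, and a difference in the balance between libraries was not tested. The ratio thus stayed within 2.03 to 2.12 while the sum of both subunits ran from 1397 to 2528 CPM. In structures of the mammalian ribosome the products of Mrps30 (mL65) and Mrps18a (mL66) sit in the large subunit, and with both counted there the ratios were 2.24 to 2.42.

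**Figure D4:**
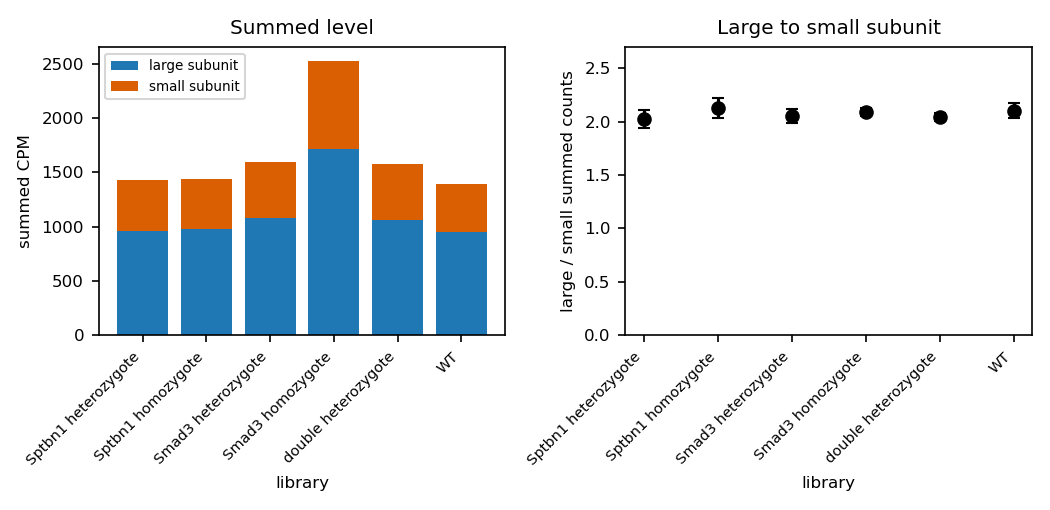
Left, summed CPM of the large-subunit and small-subunit genes (stacked bars) in the 6 libraries; right, the ratio of summed large-subunit to summed small-subunit counts with exact 95% counting intervals. The sum is highest in the library labelled Smad3 homozygote (2528 CPM) and the ratio lies between 2.03 and 2.12 in all 6.

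The genes were also grouped by structural name into those starting with u or b and those starting with m. The second class holds Mrps18a (mL66) and Mrps18b (mS40), although both derive from bacterial S18. The difference between these classes was not tested. In the library labelled Smad3 homozygote 26 of 45 genes of the first class (57.8%) and 19 of 28 of the second (67.9%) were higher, with median log2 ratios of 0.96 and 1.09. Over all genes the rule called 24.2% higher in this library. In the double heterozygote 8 of the first class were higher (17.8%) and 3 lower (6.67%), with a median of 0.17. Of the second class 6 were higher (21.4%) and 0 lower, with a median of 0.36. The rule called 21.6% of all genes higher and 19.1% lower in the double heterozygote.

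The 3 relatives of bacterial S18 differed in level and in ratio. Mrps18a had 31.6 CPM (Smad3 homozygote) and 19.9 CPM (double heterozygote), against 15.5 CPM in WT, and ratios of 2.04 (1.73 to 2.42) and 1.28 (1.08 to 1.53). Mrps18c, which encodes the S18 protein of the small subunit (bS18m), had 17.3 CPM (Smad3 homozygote) and 10.9 CPM (double heterozygote), against 6.90 CPM in WT, and ratios of 2.5 (1.96 to 3.24) and 1.58 (1.23 to 2.05). The interval of Mrps18b, with 7.20 (5.05 to 10.6) in the Smad3 homozygote, lay above those of both relatives. In the libraries labelled Sptbn1 heterozygote, Sptbn1 homozygote and Smad3 heterozygote none of the 3 was called.

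Beyond the members themselves, 7 lists of genes that build, feed or regulate the mitochondrial ribosome, 108 genes in all, were measured in the same libraries. The Smad3 homozygote had 53 of the 108 higher and 10 lower (median log2 ratio 0.79), the double heterozygote 19 and 10 (0.15), and the Smad3 heterozygote 2 and 0 (0.14). Over all genes the shares called higher and lower were 24.2 and 25.2% (Smad3 homozygote), 21.6 and 19.1% (double heterozygote) and 1.64 and 4.45% (Smad3 heterozygote), so the share of higher genes in the lists lay above that of all genes in the Smad3 homozygote, below it in the double heterozygote and near it in the Smad3 heterozygote. The 2 of the Smad3 heterozygote were Tufm and Mterfd2. In the libraries labelled Sptbn1 heterozygote and homozygote 0 were higher and 0 lower.

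Ribosomal proteins listed under other symbols were higher in the Smad3 homozygote for 5 of 7 and lower for 0. Gadd45gip1, whose product is mL64, had 38.9 CPM there and 20.7 CPM in the double heterozygote, against 6.72 CPM in WT; the Smad3 homozygote ratio was 5.78 (4.57 to 7.41). Dap3 (mS29, a GTP-binding protein of the small subunit) had ratios of 2.21 (1.97 to 2.48) in the Smad3 homozygote, with 1.82 (1.62 to 2.04) in the double heterozygote. Ptcd3 (mS39), at 2.57 (2.29 to 2.90), and Chchd1 (mS37), at 2.33 (1.99 to 2.73), were called in the Smad3 homozygote and not in the double heterozygote.

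Assembly and ribosomal RNA modification genes were higher for 15 of 29 and lower for 2 in the Smad3 homozygote; 6 were higher and 1 lower in the double heterozygote. The helicase gene Dhx30 had ratios of 3.86 (3.42 to 4.37) and 2.32 (2.05 to 2.63) in those libraries, and Spg7, a subunit of the inner-membrane protease that matures bL32m, 3.25 (2.86 to 3.70) and 2.20 (1.93 to 2.5). Translation factors were higher for 4 of 15 in the Smad3 homozygote (26.7%, near the 24.2% of all genes) and lower for 1, and higher for 1 and lower for 2 in the double heterozygote. Among the higher ones in the Smad3 homozygote were the elongation factor genes Tufm (4.71, 3.14 to 7.36) and Tsfm (3.66, 2.92 to 4.62). Mtrf1l, a release factor gene, was lower at 0.53 (0.43 to 0.65).

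Genes of mitochondrial aminoacyl-tRNA synthesis were higher for 12 of 19 and lower for 2 in the Smad3 homozygote, and higher for 4 and lower for 1 in the double heterozygote. Vars2 had 31.8 CPM (Smad3 homozygote) and 24.4 CPM (double heterozygote), against 6.37 CPM in WT, and Ears2 and Aars2 had Smad3 homozygote ratios of 5.59 (3.64 to 8.98) and 4.48 (3.36 to 6.09). Lars2, the leucyl-tRNA synthetase gene, was among the 2 lower genes and had the lowest ratio of the 19. It had 23.1 CPM in the Smad3 homozygote against 1077 CPM in WT and 1028 to 1587 CPM in the remaining libraries. The median level of the 19 genes was 10.2 CPM in WT, far below that of Lars2. Rn18s, of the cytosolic 18S ribosomal RNA, had 64661 CPM in WT. In the double heterozygote its level was 1529 CPM, and in the Smad3 homozygote it was 349 CPM. Whether reads of ribosomal RNA enter the Lars2 value was not tested.

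Import and chaperone genes were higher for 12 of 19 and lower for 0 in the Smad3 homozygote, and higher for 2 and lower for 2 in the double heterozygote. Timm13 had 74.3 CPM in the Smad3 homozygote, 44.1 CPM in the double heterozygote and 15.8 CPM in WT. Hspd1, the chaperonin HSP60, was lower in the double heterozygote at 0.39 (0.37 to 0.41). Genes of mitochondrial DNA transcription and maintenance were higher for 4 of 10 in the Smad3 homozygote and lower for 1. The DNA polymerase gene Polg had ratios of 4.52 (3.93 to 5.22) in the Smad3 homozygote, with 3.16 (2.74 to 3.65) in the double heterozygote, and Ssbp1, a single-stranded DNA binding protein, was the lower one in the Smad3 homozygote at 0.41 (0.33 to 0.52).

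Regulators of nuclear genes for mitochondrial proteins gave other counts, with 1 of 9 higher and 4 lower in the Smad3 homozygote. Esrra, a nuclear receptor, had 25.4 CPM (Smad3 homozygote) and 23.2 CPM (double heterozygote), against 3.8 CPM in WT. The coactivator genes Ppargc1a (0.17, 0.07 to 0.35), Ppargc1b (0.34, 0.21 to 0.53) and Pprc1 (0.42, 0.38 to 0.45) were lower in the Smad3 homozygote, and the fourth was Myc, with 39.0 CPM there against 72.0 CPM in WT. Nrf1, whose motif is among those searched, had 56.8 CPM (Smad3 homozygote) and 29.0 CPM (double heterozygote), against 41.8 CPM in WT, and was called in neither. Gabpa, an ETS factor, was lower in the double heterozygote at 0.48 (0.45 to 0.50) and not called in the Smad3 homozygote.

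**Figure D5:**
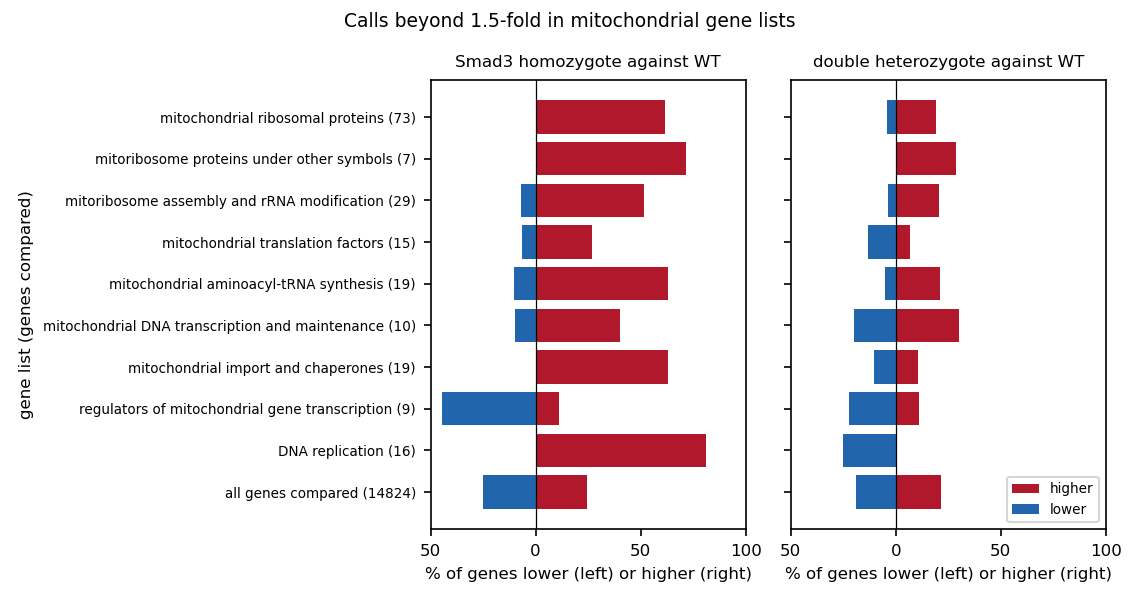
Percent of each gene list called higher (right, red) or lower (left, blue) than WT beyond 1.5-fold in the library labelled Smad3 homozygote (left panel) and the double heterozygote (right panel); the number of genes compared stands after each list's name. In the Smad3 homozygote the mitochondrial ribosomal proteins had 61.6% higher and 0% lower, beside 24.2% and 25.2% of all 14824 genes.

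Promoter letters were counted over the genes for which RefSeq held a promoter, 64 of the 73. The NRF1 letters occurred in 12.5% of them, against 5.21% of 10951 promoters of genes with at least 1 CPM in a library and 2.81% of all 27025 promoters in the table. The ETS letters occurred in 35.9%, against 17.2 and 9.12%, and the YY1 letters in 10.9%, against 3.00 and 1.5%. The E-box CACGTG (7.81%, against 10.1 and 7.24%) and the CCAAT box (39.1%, against 38.7 and 37.9%) occurred at shares near those of the other promoters.

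Genes with and without the letters had close median ratios. In the library labelled Smad3 homozygote the 8 genes with the NRF1 letters had a median log2 ratio of 1.00, with a range of -0.50 for Mrpl17 to 2.85 for Mrps18b, and the 56 without them 1.03. The medians were 0.95 for the 23 genes with the ETS letters and 1.06 for the 41 without, and 1.03 for the 7 with the YY1 letters and 1.02 for the 57 without.

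Across all 6 libraries, a fit of the level to the number of labelled mutant alleles of Sptbn1 and of Smad3 called no gene of the set. With edgeR's quasi-likelihood test and Benjamini-Hochberg adjustment over 14091 genes, 0 of 73 genes passed 0.05 for either allele, and neither did any other gene (0% called for each allele). For Smad3, 29 of the 73 genes had an unadjusted p under 0.05, all of them higher (39.7%, against 24.2% of all genes tested), and the lowest adjusted p was 0.161. The median log2 change per labelled Smad3 allele was 0.45, against 0.06 over all genes, and 67 of 73 estimates were above 0. These values rest on 1 library: without the Smad3 homozygote the median was 0.20, 50 of 73 estimates were above 0, and 2 of 73 genes had an unadjusted p under 0.05 (2.74%, against 6.62% of all genes tested). Without WT or without the Sptbn1 heterozygote that number was 15 in each case (20.55%). Of all genes tested, 14.52% had an unadjusted p under 0.05 without WT and 11.02% without the Sptbn1 heterozygote. For Sptbn1, 0 of 73 genes and 22 of all genes had an unadjusted p under 0.05, and the median of the 73 was 0.02. Its sign was not stable: with 1 library left out it ran from -0.06 (without the Sptbn1 homozygote) to 0.11 (without WT).

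Other forms of this fit gave other counts for Smad3. DESeq2's Wald test with the same covariates and Benjamini-Hochberg adjustment called 12 of the 73 genes higher, and over all genes 879 higher and 1169 lower; for Sptbn1 it called 0 genes. In the 4 libraries without the Smad3 homozygote and the double heterozygote, edgeR called 110 genes higher and 262 lower of 13786 for Smad3. Of the 73 genes 1 was called, Mrps6, higher at a log2 change of 0.99 per labelled allele and an adjusted p of 0.0318. In that fit the Smad3 estimate rests on the 1 library labelled Smad3 heterozygote.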

How the data were processed

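RNA was taken up in TRIZOL, and 1 ug of it went into an Illumina TruSeq RNA kit, per the labels' protocols. The authors deposited raw read counts per gene symbol for each of 6 libraries. TopHat2 2.0.10, HTSeq, DESeq2, FastQC, Trimmomatic and mm9 stand without roles in the submitters' processing notes; strand setting and annotation are not given there. Summary lines were left out, among them those for reads on no gene (11.9 to 32.6% of records). The line for reads without a unique alignment was left out too, with 32.5% (double heterozygote) to 47.1% (Sptbn1 homozygote) of records.

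TMM scaling was done in edgeR 4.0.16 (R 4.3.3). Ratios between libraries cover the 14824 genes that reach 1 CPM in any library, with exact Clopper-Pearson 95% intervals (scipy 1.17.1); a count of 0 was set to a floor of 3 counts. PCR reads carry no molecular identifiers and are not independent molecules, so intervals cover counting error only, and pairs have no p-value. The allele fit used edgeR's robust quasi-likelihood test, with 3 residual degrees of freedom, and DESeq2 1.42.0 as an alternative. It covered 14091 genes that reach 1 CPM in 2 or more libraries. The common biological coefficient of variation of the edgeR fit was 0.467. In 4 libraries it was 0.112, with 1 residual degree of freedom. Exon overlaps, lengths and GC content are from GENCODE on GRCm38. Length and GC content are those of the longest transcript of a gene, a protein-coding one where there is any.

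The members, lists and tests were chosen with earlier results of these data known. Named genes are the 5 most and 5 least abundant, up to 6 higher and 6 lower per mutant by the interval bound nearest to 1-fold, the 3 widest and 3 narrowest ranges, the Mrps18 genes, those at the edge of the rule and up to 4 per other list; other named genes, such as those below 1 or the lowest ratio in a library, were chosen after their values were seen. Of 20 aminoacyl-tRNA synthesis genes 19 were found.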

Additional observations from a re-analysis of the deposited data

How the results depend on the processing

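For 50 results, 296 recomputations were run in all, each result under the alternatives that apply to it. In 264 of the recomputations the result kept its size and in 32 it moved, with 0 reversed. The median log2 ratios kept their sign under all alternatives run, except that of the small subunit in the Sptbn1 homozygote. That median lay at 0.00 and was -0.02 with total counts, -0.01 with a 5 CPM filter and just below 0 with DESeq2 size factors. Counts of called genes rest on the threshold and on the interval. With a 2-fold threshold, 24 genes were higher than WT in the library labelled Smad3 homozygote (45 at 1.5-fold), 4 higher and 0 lower in the double heterozygote, 0 higher in the Smad3 heterozygote, and 11 higher in the Smad3 homozygote against the double heterozygote. Intervals were also widened by the dispersion of the allele fit in WT, both Sptbn1 libraries and the Smad3 heterozygote. That fit has 1 residual degree of freedom and meets the Smad3 heterozygote exactly. With these intervals the 5 counts in that order were 29, 7, 0, 0 and 11. With intervals widened by the dispersion over all 6 libraries they were 2, 0, 0, 0 and 0, so few calls outlast a spread of that size. With the library labelled Smad3 heterozygote in place of WT, an alternative chosen after seeing the data, the Smad3 homozygote had 35 genes higher and 1 lower and the double heterozygote 6 higher and 7 lower. With either Sptbn1 library in place of WT they had 38 and 11 higher. No scaling (DESeq2 size factors, total counts, TMM without 71 structural RNA and histone genes) moved a count by over 1.5 times. Total counts moved the median of all genes in the Smad3 homozygote to 0.15 on the log2 scale; a scaling shifts all genes of a pair alike, so the members' median less that of all genes (0.97) cannot depend on it. With Mrps30 and Mrps18a counted as large-subunit genes, the large-to-small ratio was 2.24 (Sptbn1 heterozygote), 2.37 (Sptbn1 homozygote), 2.27 (Smad3 heterozygote), 2.42 (Smad3 homozygote), 2.34 in the double heterozygote and 2.34 in WT. From median levels in place of sums it was 1.32, 1.33, 1.35, 1.28, 1.26 and 1.33 in the same order. For the labelled Smad3 allele, DESeq2's Wald test called 12 members higher and the fit in 4 libraries 1, against 0 in 6 libraries with edgeR; without each library in turn, edgeR called 0 each time, and the members' median change per allele was 0.20 without the Smad3 homozygote and 0.44 to 0.50 without any other library. No paired analysis was possible because each genotype has 1 library and the labels give no replicate numbers. Lowly expressed members limit the calls: Mrps33, for example, had an interval of 0.78 to 1.86 in the Smad3 homozygote against WT.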
